A study of Mus musculus with 12 samples.

Results

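Departure from additivity was measured for the pairing of a Bod1L knockout with etoposide in mouse embryonic stem cells, which are pluripotent cells derived from the early embryo. For each gene, the etoposide change in wild-type cells was subtracted from the etoposide change in knockout cells, (KO etoposide − KO) − (WT etoposide − WT), on log2(TPM + 1), where TPM is an abundance per unit of gene length scaled to a fixed total in each library. This difference is called the interaction below. A value of 0 means that etoposide changed log2 abundance equally in both genotypes, and a value below 0 means that the change was lower in the knockout. It was computed for the 14107 of 41079 gene IDs whose TPM averaged 1 or more over all 12 libraries, and 174 of them passed the test. The 4 groups held 3 libraries each and were, by their labels, Bod1L KO with tamoxifen and etoposide (KO etoposide), Bod1L KO with tamoxifen (KO), WT with etoposide (WT etoposide) and WT without either (WT). Tamoxifen is named for the knockout libraries and not for wild type, so knockout and tamoxifen cannot be told apart in the interaction. The dose and duration of etoposide, the number of knockout clones and the deleted part of the gene are not given in the sources used here.

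Etoposide holds topoisomerase II on the DNA it has just cut, so that breaks in both strands accumulate. Such breaks activate the kinases ATM and ATR, which stabilise p53, a transcription factor whose targets stop the cell cycle, start cell death and, through Mdm2, bring p53 itself back down. Embryonic stem cells are known for abundant p53 and for differentiating or dying readily after DNA damage. BOD1L belongs to the SETD1A complex, an enzyme that places H3K4 methylation at active promoters, and the series' title ties it to the expression of DNA repair genes. The question addressed here is whether the drug's effect on each gene was the same with and without Bod1l.

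Aligned depth was 5.23 to 7.76 gigabases per library. KO libraries (5.23 to 6.51) were all below KO etoposide libraries (6.88 to 7.76), while WT (6.64 to 7.3) and WT etoposide libraries (5.78 to 7.04) overlapped. Whether depth affected the interaction was not tested. Libraries of a group had pairwise correlations of 0.994 to 0.996 over genes, a description since genes are not replicates. The defining markers of the labelled stem cells were present: Pou5f1 lay between 1272.6 and 1524 TPM, Nanog between 671 and 786 TPM and Sox2 between 372 and 425 TPM over the 12 libraries. In bulk RNA, fewer cells of a type and less RNA per cell cannot be told apart. Bod1l, on chromosome 5 from 41944881 to 42001695 (GRCm39), had 12.95, 12.4 and 11.7 TPM in KO etoposide libraries and 11.99, 11.2 and 11.5 TPM in KO libraries, against 46.5, 51.1 and 48.6 TPM in WT etoposide libraries and 48.5, 48.8 and 50.6 TPM in WT libraries. The knockout libraries were low and did not overlap the wild-type libraries. Its own interaction was 0.10 ± 0.07 (± SE, limma with Benjamini-Hochberg adjustment, adjusted p = 0.634), so the remaining Bod1l signal and the wild-type signal showed no detectable difference in their response to the drug.

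Of the 14107 genes, 174 departed from additivity (1.23%), and the direction was nearly always the same. The interaction was below 0 for 164 genes (1.16% of those tested) and above 0 for 10 (0.0709%), by limma with a Benjamini-Hochberg adjusted p under 0.05. At an unadjusted p under 0.05 there were 1604 genes. The median interaction was −0.47 among the 164 genes below 0, with quartiles at −0.64 and −0.34, and −0.02 over all genes tested. By estimate, 160 of the 164 genes were higher with etoposide in both genotypes, and 151 passed the test for a rise in each. Rises with etoposide passed the test for 14.5% of all genes in KO and for 20.8% in WT. The usual form of a departure was therefore a gene induced in both genotypes with a smaller log2 change in the knockout, where the median change was 0.75 in KO and 1.19 in WT. These genes also differed before the drug: the median difference of KO from WT was 0.21 with etoposide and 0.69 without it. The mean in KO etoposide libraries exceeded the mean in WT etoposide libraries for 128 of the 164 genes. The knockout thus held more of most of these RNAs in both states, with a smaller difference in the treated one.

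**Figure D1:**
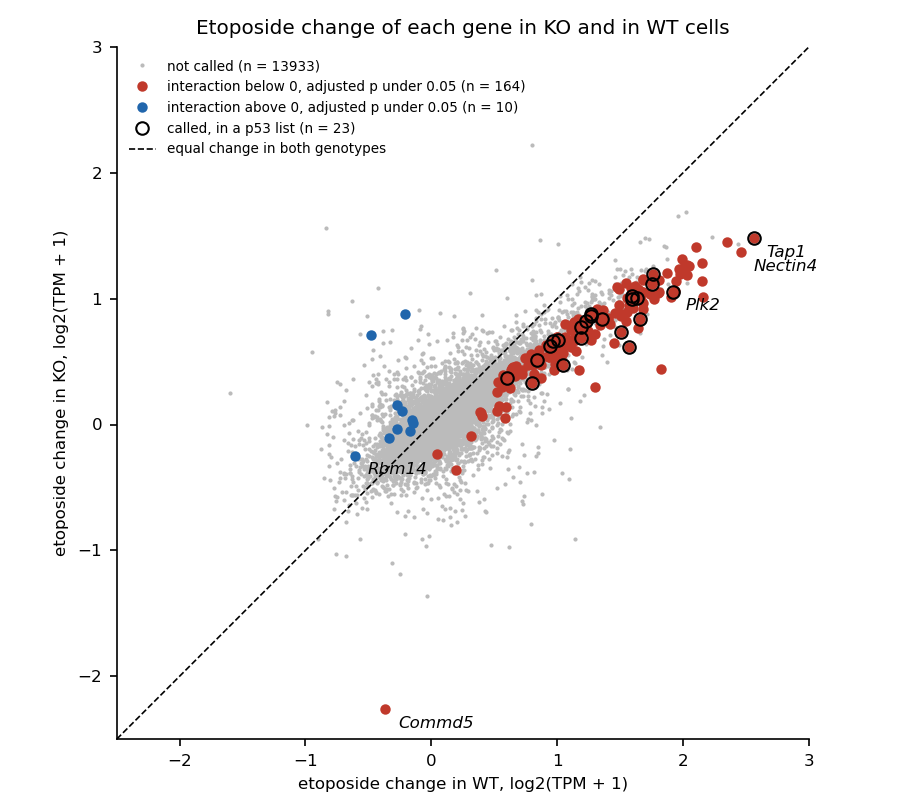
Etoposide change in KO cells (vertical axis) against the change in WT cells (horizontal axis), both on log2(TPM + 1), for 14107 genes, each a point. Red points are the 164 genes with an interaction below 0, which lie below the dashed line of equal change and mostly at the upper right, blue points are the 10 above 0, and black rings mark the 23 called members of the p53 lists.

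The departures were concentrated among genes with a large etoposide response. When genes were ordered by their change averaged over both genotypes, in bins chosen after the values were seen, the 225 genes with an average of at least 1 had a median interaction of −0.48, and 220 of them were below 0. In that bin 78 genes were called, all below 0. The median was −0.24 for the 676 genes between 0.5 and 1, where 68 were called below 0 and none above. It was −0.11 for the 1238 genes between 0.25 and 0.5, where 11 were called below 0 and 1 above. Between 0 and 0.25 the median over 5344 genes was −0.03. Among genes whose average fell, the sign turned: the 61 genes between −1 and −0.5 had a median of 0.10 with 20 below 0, and none was called by limma (the count at an adjusted p under 0.05). The median was 0.02 for the 582 genes between −0.5 and −0.25, with 252 below 0, and 0.01 for the 5980 genes between −0.25 and 0, whose median change was −0.08 in KO and −0.08 in WT. A log2 change nearer to 0 in the knockout was thus plain among induced genes, slight among the 61 genes that fell most, and near absent among the other falling genes. The bin below −1 held Commd5 alone, which is described further on.

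**Figure D2:**
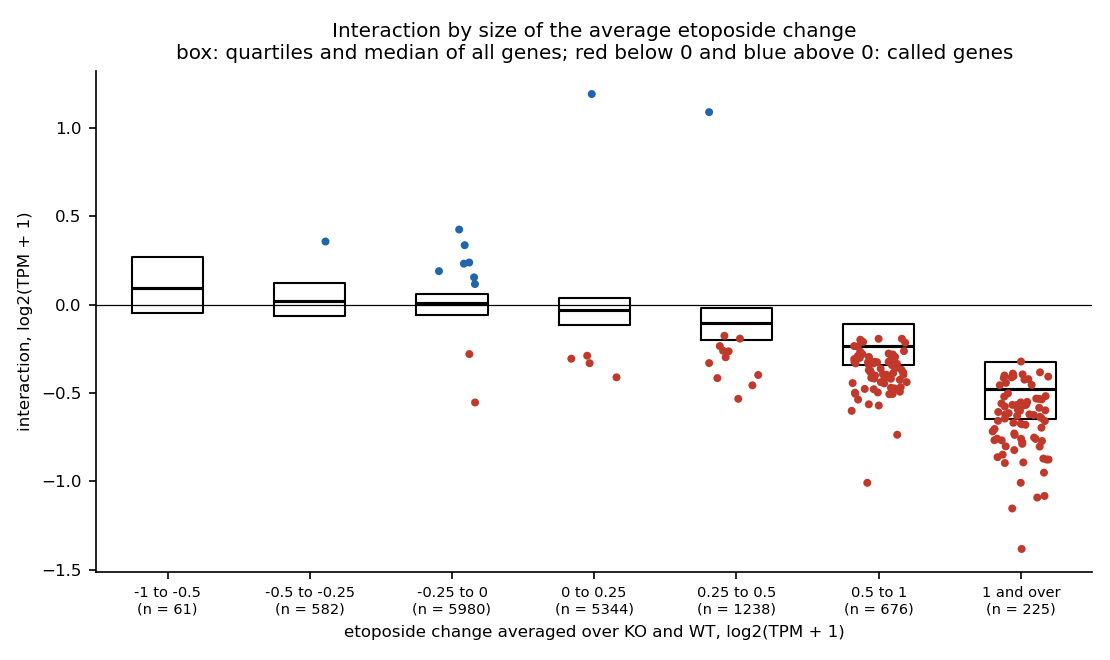
Interaction on log2(TPM + 1) for genes grouped by their etoposide change averaged over KO and WT (horizontal axis, same scale), with the box at the quartiles and the line at the median of all genes in a bin. The median is −0.48 in the bin of 1 and over and 0.10 in the bin from −1 to −0.5, and points are the called genes, red below 0 and blue above 0, of which Commd5 lies outside these bins.

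Precision followed abundance. The median SE of the interaction was 0.196 at a mean of 1 to 5 TPM, 0.0944 at 5 to 50 TPM and 0.0520 over 50 TPM. In the same order, 8 of 3376, 103 of 6686 and 63 of 4045 genes were called. A departure of a given size was therefore harder to detect in a gene of low abundance. Leaving out 1 library left 90 to 126 genes called below 0. The count moved by over 1.5 times, to 104 without WT replicate 2, 107 without WT etoposide replicate 1, 103 without WT etoposide replicate 2, 90 without WT etoposide replicate 3, 107 without KO replicate 1, 91 without KO etoposide replicate 1 and 93 without KO etoposide replicate 3. All 164 genes stayed below 0 by estimate without each library in turn. At the threshold, Hnrnpc was the last gene inside, with an interaction of 0.12 and an adjusted p of 0.049983 by limma, and Unc13b the first outside, with −0.23 and 0.0521.

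The p53 targets held 23 of the departures. Over 4 lists of p53 targets and regulators, 80 genes were tested and 23 were called, all with an interaction below 0, against 1.16% over all genes. The median interaction of the 80 genes was −0.15, beside −0.02 for all genes tested. The 80 genes were on the whole induced, with a median change of 0.46 in KO and 0.62 in WT, and the share called was 28.8%. Over all genes, the share called was 10.1% at an average change between 0.5 and 1, where the median interaction was −0.24, and 34.7% at 1 or more. The median SE was 0.0755 in the p53 lists and 0.0944 over all genes, so these shares also differ in precision. No comparison matched for size of change and SE was made. The departure of p53 targets was thus not shown to be particular to them among induced genes. All 23 passed the test for a rise with etoposide in both genotypes, with a median change of 0.82 in KO and 1.27 in WT. In each of the 23, every KO etoposide library lay above every KO library, every WT etoposide library lay above every WT library, and every KO library lay above every WT library. Members of these lists were chosen with earlier results of these data known, so their direction is a description of known responders.

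Among p53 targets that stop growth, 8 of 19 were called, with a list median of −0.23. Plk2, a kinase of the polo family, lies on chromosome 13 from 110531578 to 110537378. It had 172, 168 and 177 TPM in KO etoposide libraries and 82.9, 83.7 and 80.5 TPM in KO libraries, against 121, 125 and 125 TPM in WT etoposide libraries and 32.8, 30.4 and 32.9 TPM in WT libraries. The 4 groups did not overlap, with WT lowest and KO etoposide highest. Etoposide raised Plk2 by 1.06 in KO and by 1.92 in WT, and the interaction was −0.86 ± 0.05 (limma adjusted p = 9.8e-06), the lowest p of all genes tested. Btg2, an antiproliferative regulator of transcription and mRNA decay, had 166, 159 and 166 TPM in KO etoposide libraries and 75.7, 73.1 and 76.1 TPM in KO libraries, against 145, 138 and 141 TPM in WT etoposide libraries and 41.8, 40.1 and 41.7 TPM in WT libraries. The order of the groups was the same as for Plk2, again without overlap. Its interaction was −0.64 ± 0.04 (limma adjusted p = 3.83e-05), from changes of 1.12 in KO and 1.75 in WT. Trp53inp1, a p53-induced nuclear protein that acts in arrest and death, averaged 477 TPM in KO etoposide and 267 in KO, against 361 in WT etoposide and 140.4 in WT, with an interaction of −0.52 ± 0.05 (limma adjusted p = 0.00047). The other called members of this list were Cdkn2b, named by rank, and Gdf15, Phlda3, Ccng1 and Cdkn1a, chosen here after their values were seen. Cdkn2b, which encodes the CDK inhibitor p15, had the lowest interaction of the list, −0.95 ± 0.17. Its call held in 10 of the 12 fits that each left out a library, with limma adjusted p up to 0.0592. The call was also lost without the filter, with quantile normalization, on the square root scale and on TPM with no log.

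Cdkn1a encodes p21, the CDK inhibitor through which p53 arrests the cycle, and Ccng1 encodes cyclin G1. Their promoter windows are printed because they hold a p53 site. Of the 23 called list members, 19 had a window, and 17 of these 19 held no such site. Each window runs from 250 bases before to 50 bases after the start of the gene (RefSeq, GRCm38.p6), in the direction of the gene. Capitals mark the pair of half-sites with the fewest mismatches, and any other pair is left unmarked. The window of Cdkn1a is chr17:29090729-29091028 on the + strand. It holds an exact match to the p53 full site, a pair of half-sites of 10 bases. The first base of the match lies at −73, and 12 bases lie between its half-sites. Its latter half-site and the 10 bases right after it, tgacatgttc, make another pair with 1 mismatch, which is not marked. The window of Ccng1 is chr11:40755237-40755536 on the − strand, with 1 mismatch and a first base at −195. 
Cdkn1a: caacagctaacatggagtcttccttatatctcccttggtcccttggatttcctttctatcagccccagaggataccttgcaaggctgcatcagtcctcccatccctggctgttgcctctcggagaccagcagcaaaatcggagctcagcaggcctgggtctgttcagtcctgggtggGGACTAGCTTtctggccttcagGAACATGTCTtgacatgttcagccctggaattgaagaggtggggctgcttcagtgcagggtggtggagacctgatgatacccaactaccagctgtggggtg
Ccng1: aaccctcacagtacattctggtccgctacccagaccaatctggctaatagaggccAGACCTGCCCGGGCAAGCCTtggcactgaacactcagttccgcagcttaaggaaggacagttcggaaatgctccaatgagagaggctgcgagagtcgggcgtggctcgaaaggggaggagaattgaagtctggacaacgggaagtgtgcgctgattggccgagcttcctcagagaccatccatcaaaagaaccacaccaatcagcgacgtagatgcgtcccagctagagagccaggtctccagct
Both strands were searched for the p53 consensus half-site, with up to 13 bases between half-sites and up to 2 mismatches in the pair, the central C and G of each half-site being required, and no other motif was searched. A window was found for 10496 of the 14107 genes tested, of which 4.55% held a site with up to 2 mismatches and 0.0572% an exact one. Of the 164 genes below 0, 127 had a window (77.4%), which is under 80%, so a comparison of shares was void for this set. A match describes the letters alone, and nothing about p53 binding follows from it.

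Cdkn1a had 213, 218 and 213 TPM in KO etoposide libraries and 172, 157 and 169.8 TPM in KO libraries, against 218, 220.5 and 228 TPM in WT etoposide libraries and 149.96, 145 and 143 TPM in WT libraries. With etoposide the KO libraries were all just below the WT libraries, while without it they were all above. The interaction of Cdkn1a was −0.23 ± 0.05 (limma adjusted p = 0.0449), from changes of 0.37 in KO and 0.60 in WT, and its call held in 1 of the 12 fits that each left out a library. Ccng1 had 689, 689 and 717 TPM in KO etoposide libraries and 455, 429 and 434 TPM in KO libraries, against 568, 586 and 592 TPM in WT etoposide libraries and 291, 297 and 303 TPM in WT libraries. Its groups did not overlap, and the interaction of −0.30 ± 0.04 (limma adjusted p = 0.00251) held without each of the 12 libraries. Gdf15, a secreted stress cytokine, had an interaction of −0.57 ± 0.12, and Phlda3, an inhibitor of AKT signalling, of −0.34 ± 0.07. The call of Gdf15 held in 2 and that of Phlda3 in 0 of those 12 fits.

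**Figure D3:**
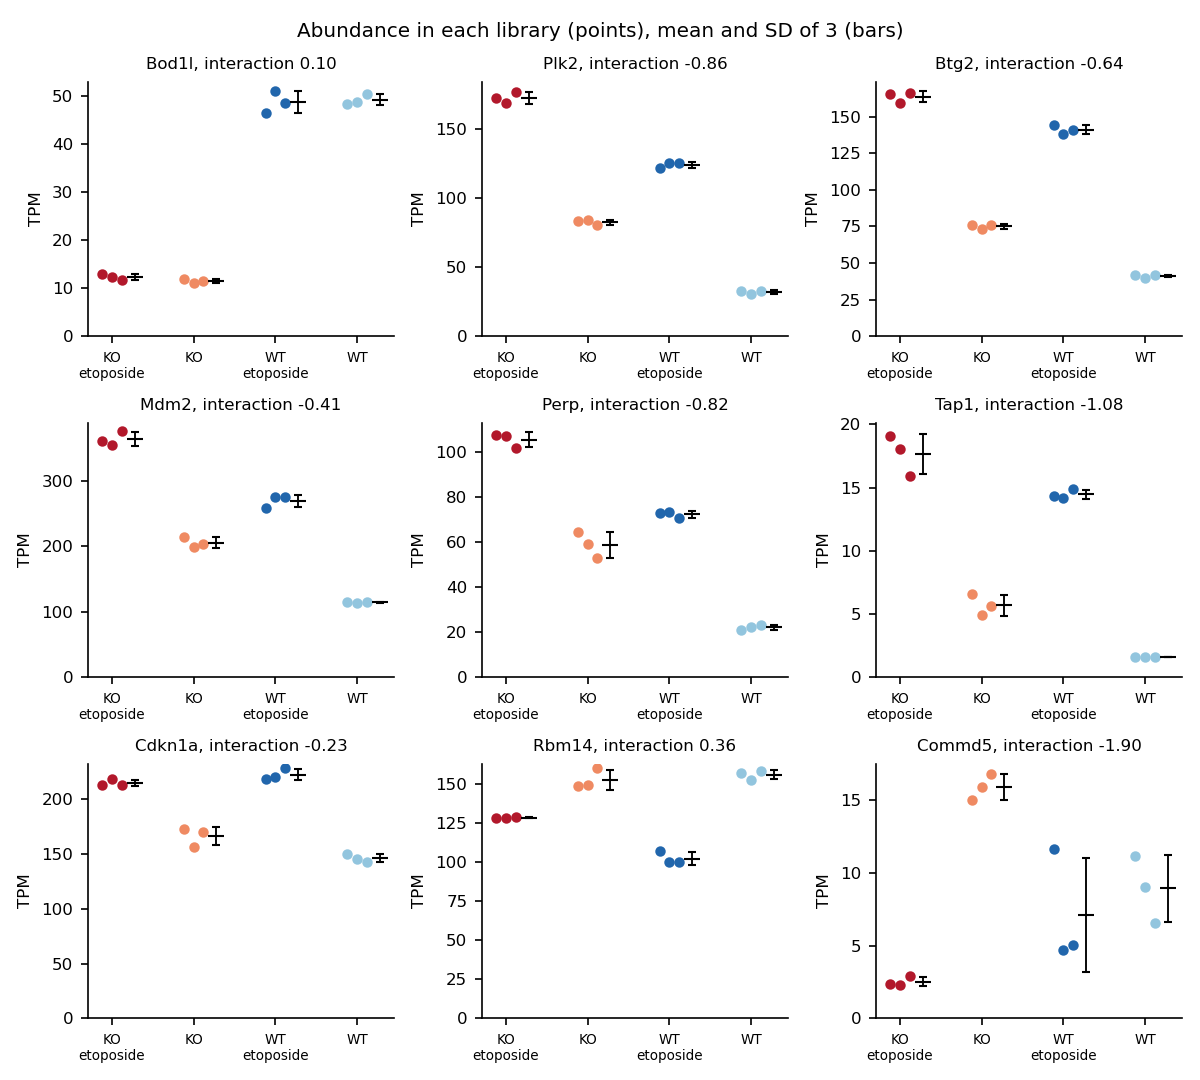
TPM of 9 genes in each library (points, 3 per group) for KO etoposide, KO, WT etoposide and WT, with the mean and SD of the 3 beside them. For Plk2, Btg2, Mdm2, Perp and Tap1 both untreated and treated KO libraries lie above their WT counterparts and the relative step is smaller in KO, Rbm14 shows a smaller fall in KO, and Commd5 falls in KO with scattered WT libraries.

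Among p53 targets of cell death, 5 of 19 were called, with a list median of −0.18. Perp, a desmosomal membrane protein that takes part in p53-dependent death, had 108, 107 and 102 TPM in KO etoposide libraries and 64.4, 59.1 and 52.9 TPM in KO libraries, against 73.01, 73.3 and 70.5 TPM in WT etoposide libraries and 21.2, 22.2 and 23.3 TPM in WT libraries. The groups were apart, with WT lowest. Its interaction was −0.82 ± 0.09 (limma adjusted p = 0.000591), from changes of 0.84 in KO and 1.66 in WT. Apaf1, the scaffold of the apoptosome, averaged 77.2 TPM in KO etoposide and 47.7 in KO, against 70.8 in WT etoposide and 30.6 in WT, with an interaction of −0.51 ± 0.07 (limma adjusted p = 0.00434). It overlaps Ikbip on the opposite strand. Tnfrsf10b, a TRAIL death receptor, had changes of 0.33 in KO and 0.80 in WT and an interaction of −0.47 ± 0.08 (limma adjusted p = 0.0107). Bbc3 (PUMA), which frees BAX and BAK to open mitochondria, and the sugar reductase gene Dcxr were chosen after their values were seen. Dcxr is among the 5 only because the list holds it, and no part in cell death is shown here. The interactions of Bbc3 and Dcxr were −0.39 ± 0.08 and −0.59 ± 0.12, with calls that held in 1 and 3 of the 12 fits without a library. The BH3-only gene Pmaip1 (Noxa) had changes of 0.86 in KO and 1.40 in WT and did not pass (−0.54 ± 0.13, limma adjusted p = 0.084). Bax itself had an interaction of −0.05 ± 0.04, 95% interval −0.13 to 0.04.

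Among p53 and its feedback regulators, 2 of 14 were called, with a list median of −0.04. Mdm2, the ubiquitin ligase that degrades p53, lies on chromosome 10 from 117524780 to 117546663. It had 361, 355 and 376 TPM in KO etoposide libraries and 215, 198 and 203 TPM in KO libraries, against 259, 275 and 275 TPM in WT etoposide libraries and 115, 113 and 115 TPM in WT libraries. KO etoposide libraries were highest and WT libraries lowest, with no overlap of groups. The interaction was −0.41 ± 0.05 (limma adjusted p = 0.00127), from changes of 0.82 in KO and 1.23 in WT. Mdm4, its partner in holding p53 inactive, averaged 400.4 TPM in KO etoposide and 259 in KO, against 357 in WT etoposide and 185 in WT and had an interaction of −0.32 ± 0.05 (limma adjusted p = 0.00921). Trp73, a p53 family member, was induced in both genotypes (1.48 in KO and 1.73 in WT) and did not pass (−0.26 ± 0.06, limma adjusted p = 0.103). The RNA of Trp53 itself ranged from 524 to 561 TPM over the 12 libraries, and its interaction was 0.01 ± 0.03, 95% interval −0.06 to 0.08. Ppm1d, the phosphatase that ends p53 signalling, had −0.12 ± 0.06, 95% interval −0.24 to 0.01.

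Among p53 targets of metabolism, repair and trafficking, 8 of 28 were called, with a list median of −0.16. Ptpn14, a phosphatase that restrains YAP, had 60.1, 62.5 and 63.6 TPM in KO etoposide libraries and 30.3, 29.6 and 30.3 TPM in KO libraries, against 47.2, 46.2 and 48.05 TPM in WT etoposide libraries and 14.9, 14.7 and 15.2 TPM in WT libraries. Its groups did not overlap. The interaction was −0.57 ± 0.05 (limma adjusted p = 0.000177). Ephx1, an epoxide hydrolase of detoxification, had changes of 0.74 in KO and 1.51 in WT and an interaction of −0.77 ± 0.08 (limma adjusted p = 0.000555). Ptp4a3, a phosphatase that p53 induces in mouse cells, had an interaction of −0.63 ± 0.06 (limma adjusted p = 0.000555). Tap1, which carries peptides into the endoplasmic reticulum for antigen presentation, had 19.06, 18.03 and 15.9 TPM in KO etoposide libraries and 6.56, 4.92 and 5.63 TPM in KO libraries, against 14.4, 14.2 and 14.9 TPM in WT etoposide libraries and 1.64, 1.62 and 1.595 TPM in WT libraries. It was nearly off in WT and higher in every other group. The interaction was −1.08 ± 0.13 (limma adjusted p = 0.00113), from changes of 1.48 in KO and 2.56 in WT. Another called member was Ddit4 (−0.57 ± 0.10), an inhibitor of mTORC1. The rest, chosen after their values were seen, were Rap2b (−0.41 ± 0.05), a small GTPase, Crip2 (−0.41 ± 0.06), a LIM-domain protein, and Slc19a2 (−0.33 ± 0.05), a thiamine transporter. Of these 4, the call of Ddit4 held in 8 of the 12 fits without a library and the others in all 12.

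Not all p53 targets passed the test for a departure. Of the 57 list members not called, 34 passed the test for a rise with etoposide in both genotypes, and 31 of these 34 had an interaction below 0 by estimate, with a median of −0.12. Fdxr, a mitochondrial reductase, had changes of 0.54 in KO and 0.62 in WT and an interaction of −0.08 ± 0.08, 95% interval −0.27 to 0.10. Trp53i11 had changes of 0.67 in KO and 0.71 in WT and an interaction of −0.04 ± 0.10, 95% interval −0.25 to 0.17. The intervals of both include 0 but do not show equality. Sesn2, an inhibitor of mTORC1, had 0.58 in KO and 0.74 in WT and −0.16 ± 0.04, 95% interval −0.25 to −0.08, an interval below 0, with a limma adjusted p of 0.0869. Fdxr and Trp53i11 were chosen after their values were seen. Without each library in turn, 16 of the 23 called members kept their call and 7 lost it in at least 1 fit, and the list count ranged from 16 to 20.

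Whether a gene departed from additivity depended on the scale. An interaction below 0 on the log2 scale says that the proportional step was smaller in KO, and a higher starting level makes the same added amount a smaller proportion. On the TPM scale, the step of Plk2 was 89.9 ± 2.61 TPM in KO and 91.8 ± 1.497 TPM in WT, that of Ptpn14 was 32.04 ± 1.05 TPM in KO and 32.2 ± 0.569 TPM in WT and that of Ddit4 was 88.2 ± 2.52 TPM in KO and 88.8 ± 7.67 TPM in WT (± SE, n = 3 libraries per group). These steps differed by less than their errors. The step of Mdm2 was 159 ± 7.87 TPM in KO and 155 ± 5.36 TPM in WT, so its sign turned on this scale, within its error. Galnt6, which starts O-linked glycosylation, behaved otherwise, with steps of 30.3 ± 1.27 TPM in KO and 44.5 ± 0.282 TPM in WT. The step of Gpx3, a secreted glutathione peroxidase, was 43.6 ± 1.39 TPM in KO and 56.4 ± 0.754 TPM in WT. For these last 2 genes the added amount was also smaller in KO.

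Over the 164 genes, the TPM step was smaller in KO for 148 and larger for 16, and the median ratio of the steps, KO over WT, was 0.807 with quartiles at 0.696 and 0.925. These genes were called for a smaller log2 change in KO, so this tally describes them and supports nothing. Over all 225 genes with an average change of at least 1, called or not, the step was smaller in KO for 162 and the median ratio was 0.908. Among the 164 genes, the log2 change in KO was a median 60.6% of that in WT. The difference of the TPM steps lay within 2 SE of 0 for 57 genes, was lower in KO by over 2 SE for 105 and higher by over 2 SE for 2. In the p53 lists the TPM step was smaller in KO for 22 of 23 and within 2 SE for 10. A limma fit on TPM with no log, chosen after seeing the data, called 23 genes below 0 and 6 above 0, so the share below 0 was 79.3%, against 94.3% on the log2 scale. It shared 14 of the 164 genes, which are 8.54% of the 164 and 60.9% of its own 23, and called 1 p53 list member. On the square root of TPM, between the 2 scales, 37 genes were called below 0, of which 6 were p53 list members. The genes Abhd4, Ephx1, Galnt6, Gpx3 and Mcam were called below 0 under all 24 alternatives tried.

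**Figure D4:**
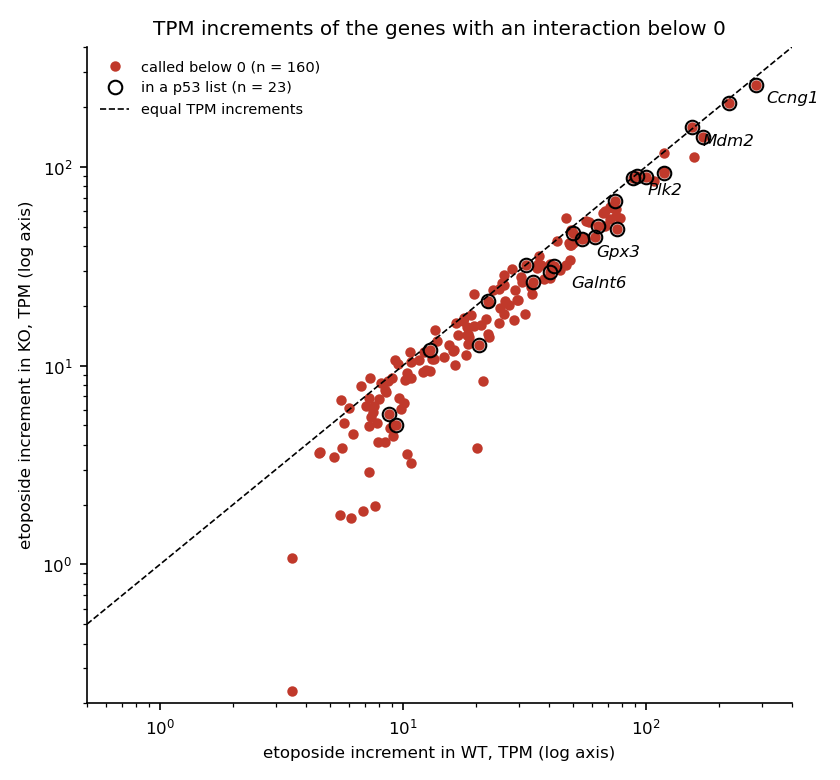
Step in TPM with etoposide in KO (vertical log axis) against the step in WT (horizontal log axis) for the 160 genes called below 0 whose mean rose in both genotypes, with black rings on the 23 p53 list members. Most points lie near or just below the dashed line of equal steps, and Mdm2 lies on it while Galnt6 and Gpx3 lie under it.

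Outside the p53 lists, the lowest interactions included those of a cell surface receptor, an adhesion molecule and secreted proteins of low abundance, named by rank. Nectin4, a cell adhesion molecule of the nectin family, had 11.98, 12.99 and 14.2 TPM in KO etoposide libraries and 4.31, 4.71 and 4.24 TPM in KO libraries, against 10.01, 9.86 and 10.3 TPM in WT etoposide libraries and 1.18, 0.809 and 1.04 TPM in WT libraries. WT libraries were close to 1 TPM, and treated KO libraries were all above treated WT libraries. Its interaction was −1.09 ± 0.12 (limma adjusted p = 0.000841), from changes of 1.37 in KO and 2.46 in WT. Ltb4r1, a leukotriene B4 receptor, had 18.6, 19.4 and 16.01 TPM in KO etoposide libraries and 8.23, 7.01 and 7.6003 TPM in KO libraries, against 13.3, 12.5 and 13.03 TPM in WT etoposide libraries and 2.44, 2.299 and 1.73 TPM in WT libraries. All 4 groups were apart, with WT lowest. The interaction was −1.01 ± 0.14 (limma adjusted p = 0.0033).

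Plcd4, a phospholipase C, had 8.85, 9.76 and 8.64 TPM in KO etoposide libraries and 3.22, 4.36 and 4.53 TPM in KO libraries, against 10.6, 12.2 and 9.39 TPM in WT etoposide libraries and 1.17, 2.02 and 1.702 TPM in WT libraries. The untreated groups were apart, and the treated groups overlapped. Its interaction was −1.15 ± 0.20 (limma adjusted p = 0.0141), and the gene overlaps Usp37 on the opposite strand. Ano7, of the anoctamin family, had an interaction of −0.90 ± 0.13 (limma adjusted p = 0.00583), and Anxa8, a calcium-dependent phospholipid-binding annexin, had −0.87 ± 0.11 (limma adjusted p = 0.0021). Both had nearly equal treated means, 8.17 TPM in KO etoposide and 8.395 TPM in WT etoposide for Ano7, and 10.8 and 11.4 TPM in the same groups for Anxa8. Cpz, a secreted carboxypeptidase that binds Wnt proteins, had −0.88 ± 0.12, and Col9a3, a chain of the cartilage collagen IX, had −0.88 ± 0.14. Col9a3 overlaps Tcfl5 on the opposite strand. Since these genes were near or under 10 TPM, the pseudocount of 1 shrinks their changes most in WT, the lowest group. The interaction of Nectin4 was −1.67 with a pseudocount of 0.1 and −0.64 on FPKM, and that of Ano7 was −1.41 and −0.55 in the same order. Their calls by limma held under both.

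Among genes of mean TPM of at least 20, the lowest p values belonged to Plk2, Btg2, Gpx3, Hyal1, Ddit4l, Ptpn14, Galnt6 and Man2b1. Gpx3 had 93.6, 91.3 and 88.9 TPM in KO etoposide libraries and 47.7, 48.1 and 47.1 TPM in KO libraries, against 82.9, 83.5 and 83.03 TPM in WT etoposide libraries and 26.99, 27.9 and 25.4 TPM in WT libraries. Its groups did not overlap, and the interaction was −0.68 ± 0.05 (limma adjusted p = 6.91e-05). Ddit4l, a relative of Ddit4 that also restrains mTORC1, had 47.9, 47.7 and 50.1 TPM in KO etoposide libraries and 21.4, 20.6 and 19.8 TPM in KO libraries, against 40.95, 40.1 and 38.9 TPM in WT etoposide libraries and 9.48, 9.84 and 8.89 TPM in WT libraries. The groups did not overlap, and the interaction was −0.78 ± 0.07 (limma adjusted p = 0.000177). Galnt6 had 72.6, 69.6 and 70.96 TPM in KO etoposide libraries and 42.2, 39.02 and 40.9 TPM in KO libraries, against 72.5, 72.5 and 72.5 TPM in WT etoposide libraries and 27.4, 28.4 and 28.2 TPM in WT libraries. Its treated libraries overlapped between genotypes, and the departure (−0.55 ± 0.05, limma adjusted p = 0.000177) lay in the untreated libraries, where KO differed from WT by 0.52, against −0.03 in the treated ones. Man2b1, a lysosomal mannosidase, had an interaction of −0.47 ± 0.04, and Hyal1, a lysosomal hyaluronidase, of −0.46 ± 0.04. Hyal1 shares its strand with the overlapping genes Hyal3 and Naa80, and its value is uncertain where the authors' counting could split their reads.

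Commd5, a COMM domain protein, and Mir7083, a microRNA gene, had the lowest estimates and the largest SEs of the 174 called genes. Commd5 had 2.38, 2.28 and 2.902 TPM in KO etoposide libraries and 14.97, 15.9 and 16.8 TPM in KO libraries, against 11.6, 4.69 and 5.03 TPM in WT etoposide libraries and 11.2, 9.01 and 6.58 TPM in WT libraries. The KO etoposide libraries were low and close together, the KO libraries were high, and the WT etoposide libraries overlapped the WT libraries, with replicate 1 high. Its interaction was −1.90 ± 0.36 (limma adjusted p = 0.0249), the call held in 4 of the 12 fits without a library, and the adjusted p over those fits ranged from 0.00673 to 0.0702. Commd5 overlaps Zfp7 on the same strand, and Zfp7 averaged 109.6 TPM in KO etoposide and 97.5 in KO, against 119.5 in WT etoposide and 111 in WT, with an interaction of 0.06 ± 0.06. How reads were shared between these genes was not tested. Mir7083 lies within Dock6 on the same strand and averaged 6.07 TPM in KO etoposide and 4.21 in KO, against 8.46 in WT etoposide and 1.64 in WT. Its interaction was −1.38 ± 0.30 (limma adjusted p = 0.0481), and that of Dock6 was −0.14 ± 0.06 (limma adjusted p = 0.372). The call of Mir7083 held in 2 of the 12 fits, and RNA of Dock6 counted there cannot be told apart from a microRNA precursor in these tables.

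Departures above 0 were few. The 8 genes named by rank had estimates of 0.12 to 0.42. The other two, gene models chosen after their values were seen, were larger and of low abundance: Gm25821 averaged 2.17 TPM in KO etoposide and 0.917 in KO, against 1.19 in WT etoposide and 2.04 in WT, with an interaction of 1.19 ± 0.24 (limma adjusted p = 0.038), and 2900060B14Rik averaged 2.205 TPM in KO etoposide and 0.746 in KO, against 0.864 in WT etoposide and 1.15 in WT, with 1.09 ± 0.18 (limma adjusted p = 0.0101). The call held in 3 of the 12 fits without a library for Gm25821, which overlaps Cpsf3 on the same strand, and in all 12 for 2900060B14Rik, which overlaps Clasp1 on the opposite strand. Of the 10 genes, 6 were higher with etoposide in KO and lower in WT by estimate, and 4 were lower in both. A fall passed the test for 3 of the 10 in KO and for 9 in WT, beside 10.5% of all genes in KO and 13.5% in WT. Rbm14, an RNA-binding coactivator found in paraspeckles, had 128, 129 and 129 TPM in KO etoposide libraries and 149, 149.6 and 160.3 TPM in KO libraries, against 107, 99.9 and 99.99 TPM in WT etoposide libraries and 157, 153 and 158 TPM in WT libraries. WT etoposide was lowest, the untreated groups overlapped, and KO etoposide lay between. Its interaction was 0.36 ± 0.05 (limma adjusted p = 0.00358), from changes of −0.25 in KO and −0.60 in WT, and it overlaps the gene model Gm21992 on the same strand. Calcoco2, a receptor of selective autophagy, had 210.04, 222 and 214 TPM in KO etoposide libraries and 231, 236 and 227 TPM in KO libraries, against 204, 206 and 204 TPM in WT etoposide libraries and 264, 258 and 255 TPM in WT libraries. The untreated WT libraries were highest. Its interaction was 0.23 ± 0.04 (limma adjusted p = 0.00827), and like that of Rbm14 the call held without each library.

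The remaining named genes above 0 were Prxl2b (0.42 ± 0.09), Atad2b (0.34 ± 0.06), Gemin7 (0.24 ± 0.05), Amotl2 (0.19 ± 0.04), Rbpms2 (0.15 ± 0.03) and Hnrnpc (0.12 ± 0.03). Atad2b encodes a bromodomain ATPase, Gemin7 a part of the SMN complex that assembles spliceosomal particles, Amotl2 a tight junction protein that binds YAP, and Hnrnpc a nuclear RNA-binding protein. Atad2b had 57.4, 62.7 and 64.4 TPM in KO etoposide libraries and 57.7, 56.5 and 57.1 TPM in KO libraries, against 45.1, 48.4 and 46.97 TPM in WT etoposide libraries and 53.003, 56.2 and 56.2 TPM in WT libraries. WT etoposide was lowest and no WT etoposide library reached a KO etoposide library. Each of these 6 calls held in at most 3 of the 12 fits without a library. The count above 0 was 6 without WT replicate 1, 4 without WT replicate 2, 4 without WT replicate 3, 6 without WT etoposide replicate 2, 3 without WT etoposide replicate 3, 6 without KO replicate 1, 5 without KO etoposide replicate 1, 3 without KO etoposide replicate 2 and 5 without KO etoposide replicate 3.

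Repair and checkpoint genes were close to the background of all genes. Of 170 tested in 7 lists, 0 were called by limma at an adjusted p under 0.05, beside 1.23% of all genes, and 17 had an unadjusted p under 0.05, beside 11.4% of all genes. At these shares, a list with few or no calls does not set repair genes apart. The interactions ranged from −0.46 to 0.53 with a median of −0.02, equal at this rounding to the median of all genes. Rad50, which holds broken ends together in the MRN complex, had 8.796, 8.66 and 8.48 TPM in KO etoposide libraries and 8.21, 7.96 and 7.42 TPM in KO libraries, against 43.4, 44.02 and 44.6 TPM in WT etoposide libraries and 33.3, 35.1 and 37.6 TPM in WT libraries. KO libraries were low with and without the drug. Its interaction was −0.19 ± 0.07, 95% interval −0.35 to −0.03 (limma adjusted p = 0.342). The recombination gene Rad51c, Mcm8, a helicase of recombination, and the checkpoint kinase Atr, chosen after their values were seen, also stood lower in KO. Rad51c had an interaction of −0.10 ± 0.09, 95% interval −0.29 to 0.08. Mcm8 had 0.01 ± 0.07, 95% interval −0.14 to 0.15, and Atr had 0.03 ± 0.09, 95% interval −0.17 to 0.23. The intervals of Rad51c, Mcm8 and Atr include 0 but do not show equality. That of Rad50 lies below 0, from changes of 0.12 in KO and 0.31 in WT, though the gene was not called.

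Within the other repair lists the members of lowest p were also uncalled. In recombination, Rmi1 of the BLM complex had −0.24 ± 0.08 and Swsap1 0.24 ± 0.09. In end joining, Xrcc6 (Ku70) had −0.14 ± 0.04, 95% interval −0.23 to −0.04 and Nhej1 (XLF) −0.31 ± 0.13, 95% interval −0.60 to −0.02. In base excision, Xrcc1 had −0.15 ± 0.04 and Ogg1, which removes oxidised guanine, −0.17 ± 0.07. Fanca of the Fanconi core complex had −0.17 ± 0.06, and Ercc5 (XPG), the 3′ nuclease of excision repair and a p53 list member, −0.42 ± 0.15. Rad9b of the checkpoint clamp had −0.46 ± 0.23, 95% interval −0.96 to 0.04, the widest interval among these, and its abundance in KO was under 3 TPM on average. The limma adjusted p was at least 0.157 for each of these 9 genes.

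**Figure D5:**
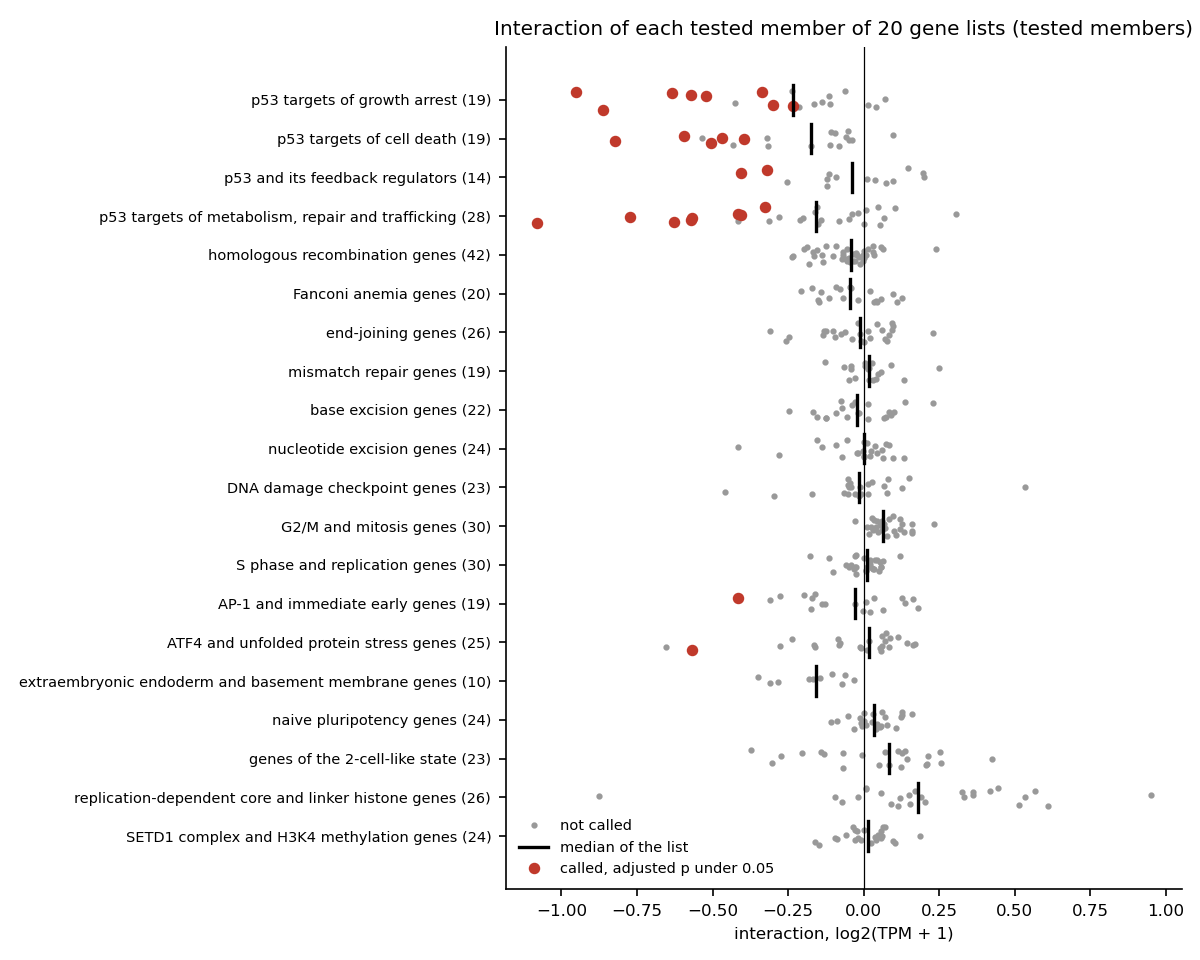
Interaction on log2(TPM + 1) of each tested member (point) of 20 gene lists, with the number tested beside the list's name and a black line at the list's median. Red points are members called at an adjusted p under 0.05, which lie in the 4 p53 lists and among the immediate early and stress genes, while the repair lists hold none.

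In all, 31 of the 38 lists held no called member, and with 1.23% of all genes called, most lists of this size would hold none at the background share. Of 30 G2/M and mitosis genes, 0 were called by limma and 9 had an unadjusted p under 0.05, beside 11.4% of all genes, with 29 above 0 and a median of 0.06. In the bin of average change from −0.25 to 0, 46.7% of all genes were below 0. Plk1, the mitotic polo kinase, averaged 135 TPM in KO etoposide and 152 in KO, against 125 in WT etoposide and 166 in WT, with an interaction of 0.23 ± 0.06 (limma adjusted p = 0.0839). Aurka and Cdc20 had 0.13 ± 0.03 and 0.16 ± 0.04. S phase genes had a median of 0.01 over 30 members. Naive pluripotency genes had a median of 0.04 over 24 members, and in Nanog the change was −0.10 in KO and −0.18 in WT with an interaction of 0.08 ± 0.03, 95% interval 0.02 to 0.14. Genes of the SETD1 complex and H3K4 methylation had a median of 0.01 over 24 members, with Wdr82, a SETD1 subunit, at 0.07 ± 0.04, 95% interval −0.01 to 0.15.

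Some lists whose genotypes stood far apart held no call either, which is again near the background. The 2-cell-like state appears in a small share of such cultures and is similar to the embryo just after its first division. Of its 23 tested genes, 0 were called by limma and 0 had an unadjusted p under 0.05, with a median of 0.08. The median SE of these genes was 0.217, against 0.0944 for all genes, so only larger departures were detectable. The members of lowest p were Tcstv2c (0.42), Tdpoz4 (−0.27) and Zscan4b (−0.37). Zscan4d, a marker of that state, had 11.9, 11.98 and 9.07 TPM in KO etoposide libraries and 12.6, 10.4 and 10.6 TPM in KO libraries, against 0.892, 0.991 and 1.002 TPM in WT etoposide libraries and 1.72, 0.904 and 1.102 TPM in WT libraries. KO libraries were high in both conditions, and the interaction was 0.14 ± 0.20, 95% interval −0.28 to 0.57. This family has near-identical copies that may share reads. Replication-dependent histone genes had a median of 0.18 over 26 tested, with 1 at an unadjusted p under 0.05, none called by limma and single values from −0.87 to 0.95. Their mRNAs lack a poly(A) tail, and per the labels the libraries were selected for poly(A). Lefty1, an inhibitor of Nodal, was low in KO with a mean of 4.68 TPM in KO etoposide and 4.61 TPM in KO, against 44.8 in WT etoposide and 36.8 in WT. Its interaction was −0.26 ± 0.09, 95% interval −0.46 to −0.06, and it was not called (limma adjusted p = 0.281).

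The remaining calls in the lists were single genes. Ccn1, a matricellular YAP target among the immediate early genes, had 39.3, 40.9 and 42.1 TPM in KO etoposide libraries and 37.6, 40.5 and 35.4 TPM in KO libraries, against 21.9, 24.7 and 22.2 TPM in WT etoposide libraries and 16.1, 14.98 and 15.9 TPM in WT libraries. KO libraries were high in both conditions, and etoposide changed it by 0.11 in KO and 0.52 in WT. Its interaction was −0.42 ± 0.08 (limma adjusted p = 0.0353), and the call held in 2 of the 12 fits without a library. Ddit4 was the called stress gene and Tap1 the called antigen presentation gene, both also p53 list members. All 10 tested genes of extraembryonic endoderm and basement membrane were below 0, with a median of −0.16 and none called by limma (3 at an unadjusted p under 0.05). Over all genes, 8206 of 14107 were below 0. The share was 62.8% at an average change of 0 to 0.25 and 78.5% at 0.25 to 0.5. The summed TPM of the endoderm and basement membrane list was 849 to 898 in KO etoposide and 929 to 958 in KO, against 845 to 869.8 in WT etoposide and 847 to 928 in WT. Feeder fibroblast markers summed to 946 to 964 TPM in KO etoposide and 1064 to 1089 TPM in KO, against 1049 to 1069 TPM in WT etoposide and 1124 to 1201 TPM in WT. Most of this sum was Fn1 and Vim. In the same order of groups, Fn1 averaged 659, 769, 664 and 716 TPM and Vim 289, 303, 388 and 434 TPM. Col1a1 averaged 1.2 TPM over all libraries, so the sum does not measure feeder RNA. Of the 13 feeder markers 4 were tested, none was called by limma and 2 had an unadjusted p under 0.05, and S100a4 was at 0 in every library. Their part in the results was not tested.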

How the data were processed

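RNA abundance was measured in 12 mouse embryonic stem cell libraries, 3 in each of 4 groups taken from the sample titles. Per the labels, Trizol RNA was selected for poly(A), depleted of ribosomal RNA and made into strand-specific libraries. Per the submitters' processing notes, the tools were Trim Galore 0.6.6, cutadapt 3.4, HISAT2 2.2.1 and StringTie 2.2.1, with the builds GRCm39 and mm39. The deposited TPM values, per the file headers, are the authors' abundances per gene, scaled by length and to a fixed library total. The deposited FPKM values, per the file headers, come from the same step without the fixed total, and served as an alternative. The deposited coverage signal, per the file headers, is read depth over each gene, and its modal ratio to FPKM gave aligned bases, not reads. Whether the authors' quantification used strand is not stated.

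Here, the 8 entries that shared an ID were summed to 4 IDs, genes averaging 1 TPM or more were kept, and limma 3.58.1 (R 4.3.3) was fitted to log2(TPM + 1) with 4 group means and a variance trend (prior degrees of freedom 3.91, residual 8). The interaction and the simple changes came from that fit, with Benjamini-Hochberg adjustment over all 14107 genes and a call at an adjusted p under 0.05. The count of TPM steps within 2 SE used group means and SDs. The labels call the replicates biological but describe no separate cultures, so p values reflect variation among these libraries alone. The fit was also run on simulated data, drawn with independent normal noise on log2(TPM + 1) in the same groups. Such data match the fit by construction and cannot check the choice of scale or reads shared between genes. Figures and tables used Python 3.11.15, pandas 2.3.3 and matplotlib 3.10.9.

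Named genes were Bod1l, the 12 highest and 12 lowest called interactions without clone, model and pseudogene names, the 8 lowest p values at a mean TPM of at least 20, and up to 3 members of lowest p from each list described. Of the 12 lowest, 1 is not reported here. Some genes outside this rule are marked in the text as picked with their values in view. Other genes, among them Pmaip1, Bax, Trp53, Ppm1d, Zscan4d, Abhd4 and Mcam, also lie outside the rule and are not so marked. The gene set and lists were chosen with earlier results of these data known. Alternatives were a pseudocount of 0.1, other filters, FPKM, 2 other scalings, a square root scale, TPM with no log, array weights, other variance models, the replicate number as a block, and leaving out each library.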

Additional observations from a re-analysis of the deposited data

Results flagged for a closer look

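The etoposide change differed between genotypes by the interaction test for each gene named here, all values being the interaction on log2(TPM + 1) and all calls by limma with Benjamini-Hochberg adjustment at 0.05. Groups of 3 libraries are too small for a test of single outlying libraries.

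Among the lowest estimates were Commd5 (−1.90), Mir7083 (−1.38), Plcd4 (−1.15), Nectin4 (−1.09), Tap1 (−1.08) and Ltb4r1 (−1.01). Next came Cdkn2b (−0.95), Ano7 (−0.90), Cpz (−0.88), Col9a3 (−0.88) and Anxa8 (−0.87). Among abundant genes the values were −0.86 for Plk2, −0.78 for Ddit4l, −0.68 for Gpx3, −0.64 for Btg2, −0.57 for Ptpn14, −0.55 for Galnt6, −0.47 for Man2b1 and −0.46 for Hyal1.

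The other p53 list members were Perp (−0.82), Ephx1 (−0.77), Ptp4a3 (−0.63), Dcxr (−0.59), Gdf15 (−0.57), Ddit4 (−0.57), Trp53inp1 (−0.52), Apaf1 (−0.51), Tnfrsf10b (−0.47), Crip2 (−0.41), Mdm2 (−0.41) and Rap2b (−0.41). Smaller departures were those of Bbc3 (−0.39), Phlda3 (−0.34), Slc19a2 (−0.33), Mdm4 (−0.32), Ccng1 (−0.30) and Cdkn1a (−0.23). The immediate early gene Ccn1 stood at −0.42.

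Above 0 were the gene models Gm25821 (1.19) and 2900060B14Rik (1.09), chosen after their values were seen, and Prxl2b (0.42), Rbm14 (0.36), Atad2b (0.34), Gemin7 (0.24), Calcoco2 (0.23), Amotl2 (0.19), Rbpms2 (0.15) and Hnrnpc (0.12). Of the other genes chosen after their values were seen, Mthfs had −0.55, Rbl2 −0.47, Rb1 −0.42, Armc7 −0.41 and Snord47 −0.28.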

How the results depend on the processing

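The counts of 164 genes below 0 and 10 above 0 were recomputed under 24 alternatives, the unlogged TPM fit and the array weights being chosen after seeing the data. Below 0 the count was 98 without the filter, 95 with quantile normalization, 37 on the square root scale and 23 on TPM with no log. Above 0 it was 6 without the filter, 6 with FPKM, 3 on the square root scale, 6 with the replicate block and 6 on TPM with no log. Of p53 list members, 6 were called on the square root scale and 1 on TPM with no log, against 23. Leaving out 1 library, named in the report where it mattered, gave 90 to 126 genes below 0, 3 to 8 above 0 and 16 to 20 p53 list members. The square root and unlogged scales change by construction what additivity means; the cause of the other shifts was not tested. The 164 genes remained below 0 by estimate, where tested, under every alternative but TPM with no log, where 148 did. On that scale the interaction was 3.31 TPM for Mdm2, not called. Of 53 named called genes, 32 kept their call without each library in turn. The call held for 8 of 53 on TPM with no log, 16 on the square root scale, 33 without the filter, 39 without the variance trend, 40 with quantile normalization and 45 with median-of-ratios scaling, and for 44 of the 51 tested with FPKM. Same-numbered libraries did not deviate together (r from −0.0449 to 0.0453 over 18 pairs), so the numbers are not taken as pairs. The replicate block gave 116 genes below 0, and 39 of 53 named genes kept their call. The median SE was largest, 0.196, for genes averaging 1 to 5 TPM, and whether depth sets it was not tested.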

Other observations

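Among single genes outside all lists, chosen after their values were seen, were members of the retinoblastoma family, which restrains entry into S phase. Of its 3 members, Rb1 and Rbl2 were called and Rbl1 was not (−0.01 ± 0.09, limma adjusted p = 0.985), beside 1.23% of all genes called. Rb1 had 33.2, 35.5 and 37.9 TPM in KO etoposide libraries and 18.7, 18.6 and 19.98 TPM in KO libraries, against 27.7, 27.1 and 25.95 TPM in WT etoposide libraries and 10.7, 10.3 and 10.3 TPM in WT libraries. Its groups did not overlap, with WT lowest. The interaction was −0.42 ± 0.08 (limma adjusted p = 0.0187), and the call held in 9 of the 12 fits that each left out a library. Rbl2, which encodes p130, had 23.8, 25.4 and 23.9 TPM in KO etoposide libraries and 14.4, 15.2 and 15.2 TPM in KO libraries, against 21.8, 23.98 and 22.6 TPM in WT etoposide libraries and 10.1, 9.37 and 9.89 TPM in WT libraries. The untreated groups were apart and the treated groups overlapped. Its interaction was −0.47 ± 0.07 (limma adjusted p = 0.00766), and the call held in all 12. On the TPM scale the step of Rb1 was 16.4 ± 1.43 TPM in KO and 16.5 ± 0.537 TPM in WT, and that of Rbl2 was 9.402 ± 0.568 TPM in KO and 12.99 ± 0.675 TPM in WT. Rb1 overlaps Lpar6 and Rbl2 overlaps Aktip, each on the opposite strand.

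Few genes with an interaction below 0 were lower with etoposide in KO. Besides Commd5, these were Mthfs, an enzyme of folate metabolism, Armc7 and the small nucleolar RNA Snord47, chosen after their values were seen. Mthfs changed by −0.36 in KO and 0.19 in WT and had an interaction of −0.55 ± 0.12 (limma adjusted p = 0.0467). Armc7 changed by −0.10 in KO and 0.32 in WT, with an interaction of −0.41 ± 0.08, and overlaps Nt5c on the opposite strand. Snord47 changed by −0.24 in KO and 0.04 in WT, with an interaction of −0.28 ± 0.05. It lies within its host Gas5 on the same strand, which had an interaction of −0.01 ± 0.07 (limma adjusted p = 0.991). RNA of Gas5 counted there cannot be told apart from the small nucleolar RNA. The calls of Mthfs, Armc7 and Snord47 held in 1, 1 and 3 of the 12 fits without a library.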
